A study of Homo sapiens with 8 samples.

Results

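CD68 and 7 other genes of lysosomal glycoproteins, cathepsins and a secreted galectin ligand were followed by RNA sequencing in RD-ES, a Ewing sarcoma cell line. CD68 was chosen by measured values, namely its rise with interferon in these libraries, and LAMP1, LAMP2, LAMP3, CTSS, CTSB, CTSD and LGALS3BP were listed beside it. That listing was made with earlier results of these libraries known, so the p-values of members below are not independent of it. The set therefore holds 8 of the 22257 gene symbols in the deposited transcript counts, and for each symbol the transcript with the highest total over all libraries was used. All 8 members passed the filter on low counts.

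Every library came from a pool of RD-ES cells, not a clone, that stably carried USP6 under control of doxycycline. USP6 encodes a deubiquitinating enzyme and acts as an oncogene in other tumours. There were 4 groups of 2 replicates: cells given doxycycline for 24 h and then 1000 U/mL interferon alpha for 24 h, cells given the same interferon alone, cells given doxycycline alone, and untreated cells. The time on doxycycline is not stated for the cells without interferon. No doxycycline-treated cells lacking the USP6 construct were analysed here, so effects of doxycycline and of USP6 cannot be told apart. The labels do not state that replicates are separate cultures. The p-values then reflect only how far these libraries scatter, which may be technical scatter.

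CD68 is a heavily glycosylated member of the LAMP family that sits in late endosomes and lysosomes, and antibodies to it are widely used to stain macrophages. LAMP1 and LAMP2 are abundant proteins of the lysosomal membrane, whereas LAMP3 is known from maturing dendritic cells. Cathepsins are proteases of the lysosome, and type I interferons act through JAK kinases and the transcription factors they activate on response elements close to the genes they induce.

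The promoter windows of the members are shown because interferon response elements and lysosomal E-boxes are read in this part of a gene. The set of reference promoter windows used here held 4 of the 8 members, by symbol, and LAMP2, LAMP3, CTSS and CTSB are named only. Each sequence covers the 250 bases before the annotated start, written 5′ to 3′ in the direction of the gene, in the GRCh38.p14 build. The windows lie at chr17:7579388-7579637 on the plus strand for CD68, chr17:78979924-78980173 on the minus strand for LGALS3BP, chr13:113296989-113297238 on the plus strand for LAMP1 and chr11:1763928-1764177 on the minus strand for CTSD. Capitals mark a match to GGAANNGAA in CD68, to GAAANNGAA in LGALS3BP and to CACGTG in LAMP1 and CTSD.
CD68: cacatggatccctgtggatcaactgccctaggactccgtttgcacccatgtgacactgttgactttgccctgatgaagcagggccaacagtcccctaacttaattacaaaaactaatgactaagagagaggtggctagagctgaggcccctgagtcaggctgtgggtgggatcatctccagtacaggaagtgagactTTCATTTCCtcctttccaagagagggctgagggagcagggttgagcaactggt
LGALS3BP: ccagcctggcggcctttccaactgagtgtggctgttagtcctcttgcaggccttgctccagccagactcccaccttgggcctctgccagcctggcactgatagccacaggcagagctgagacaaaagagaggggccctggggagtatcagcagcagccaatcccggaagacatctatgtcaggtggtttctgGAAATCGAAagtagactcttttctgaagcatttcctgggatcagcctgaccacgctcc
LAMP1: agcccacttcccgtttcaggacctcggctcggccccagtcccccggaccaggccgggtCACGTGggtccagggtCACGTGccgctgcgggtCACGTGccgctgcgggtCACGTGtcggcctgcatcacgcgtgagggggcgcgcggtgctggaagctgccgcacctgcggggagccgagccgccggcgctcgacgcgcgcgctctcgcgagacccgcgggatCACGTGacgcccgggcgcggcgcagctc
CTSD: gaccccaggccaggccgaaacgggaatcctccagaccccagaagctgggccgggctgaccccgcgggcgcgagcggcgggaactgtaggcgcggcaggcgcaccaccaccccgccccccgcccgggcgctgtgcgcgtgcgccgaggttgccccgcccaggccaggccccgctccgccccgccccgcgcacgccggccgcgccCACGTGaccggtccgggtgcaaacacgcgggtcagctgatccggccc

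Both strands were searched, and N stands for any base. The core of the interferon-stimulated response element, GAAANNGAA, occurred in the LGALS3BP window only, beginning 58 bases before the start. Of all 35116 promoter windows of that length, 6.88% held it. The CD68 window held no such core, but it held 1 match to the composite of an Ets and an IRF site, GGAANNGAA, on the opposite strand and beginning 53 bases before the start. That motif was added to the search after the CD68 sequence had been read, and 6.58% of all windows held it. The E-box CACGTG, the core of the site read by TFEB and related regulators of lysosomal genes, occurred 5 times in LAMP1, between 28 and 192 bases before the start, and once in CTSD, 47 bases before it. It occurred in 6.34% of all windows. The longer palindrome TCACGTGA, which contains that E-box, occurred in LAMP1 alone of the 4 and in 0.854% of all windows. The gamma-activated site TTCNNNGAA was in none of the 4 windows and in 6.57% of all. A match is a description of letters and does not show binding.

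The chosen transcripts held between 9304569 and 11984196 reads per library, and 14601 genes were tested. Levels are given as CPM, read counts scaled to a common library size by the trimmed mean of M values (TMM). Mean USP6 was 393.0 ± 22.6 CPM with both treatments, 9.75 ± 0.816 CPM with interferon, 563.4 ± 7.42 CPM with doxycycline and 9.32 ± 0.783 CPM in untreated cells (SD, n = 2), so the induced gene followed the labels. It was lower in both libraries with both treatments (408.9 and 377.0 CPM) than in both with doxycycline alone (568.7 and 558.2 CPM). The part of this difference in the comparisons below was not tested. Changes are log2 fold changes ± SE of the edgeR fit, and a gene was called at an adjusted p under 0.05 over all tested genes. Library deviations from a gene's mean moved with the GC content of the transcript. The Spearman coefficients across genes (no independent replicates) were -0.64 and 0.05 with both treatments, 0.31 and 0.03 with interferon, -0.48 and 0.35 with doxycycline, and 0.58 and 0.12 in untreated cells. A second fit that removes trends with GC and transcript length, called the GC-corrected fit, is given beside the results whose call it changes and beside some others, and for all members in the plot of fitted changes. In bulk samples, fewer cells making a transcript and less of it per cell cannot be told apart.

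CD68 was highest with both treatments, next with interferon alone, and low in both groups without interferon. It was read at 15.02 and 17.92 CPM with both treatments, 10.87 and 10.81 CPM with interferon, 2.75 and 3.74 CPM with doxycycline, and 2.85 and 3.22 CPM in untreated cells. All 4 libraries with interferon lay above all 4 without, and the doxycycline and untreated libraries overlapped. These levels rest on few reads, with 149 and 165 in the libraries with both treatments, 109 and 113 with interferon, 33 and 44 with doxycycline, and 30 and 36 in untreated cells. With interferon, CD68 stood 5.06-fold higher in doxycycline-treated cells (log2 2.34 ± 0.21 SE) and 3.56-fold higher in cells without doxycycline (log2 1.83 ± 0.22). Both values are descriptions without a test, because a rise with interferon was the ground for choosing the gene. The fitted log2 change with doxycycline in cells not given interferon was 0.09 ± 0.25 (95% interval -0.46 to 0.64, edgeR adjusted p = 0.91). The untreated libraries of that comparison are the ones used in choosing CD68.

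In interferon-treated cells CD68 was 1.52-fold higher with doxycycline, a log2 change of 0.60 ± 0.19 (95% interval 0.18 to 1.02) that missed the threshold (edgeR adjusted p = 0.18). Both libraries with doxycycline and interferon lay above both with interferon alone. In the GC-corrected fit the log2 change was 0.70 ± 0.15 (edgeR adjusted p = 0.016). The interferon libraries of this comparison were used in choosing CD68, so neither p-value is independent of that choice. CD68 has a transcript GC content of 55.38%. In the GENCODE 29 annotation 1 gene on the same strand and 1 on the opposite strand overlap CD68, and since the sources used here do not say how strand was counted, reads of these genes cannot be told apart from those of CD68.

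**Figure D1:**
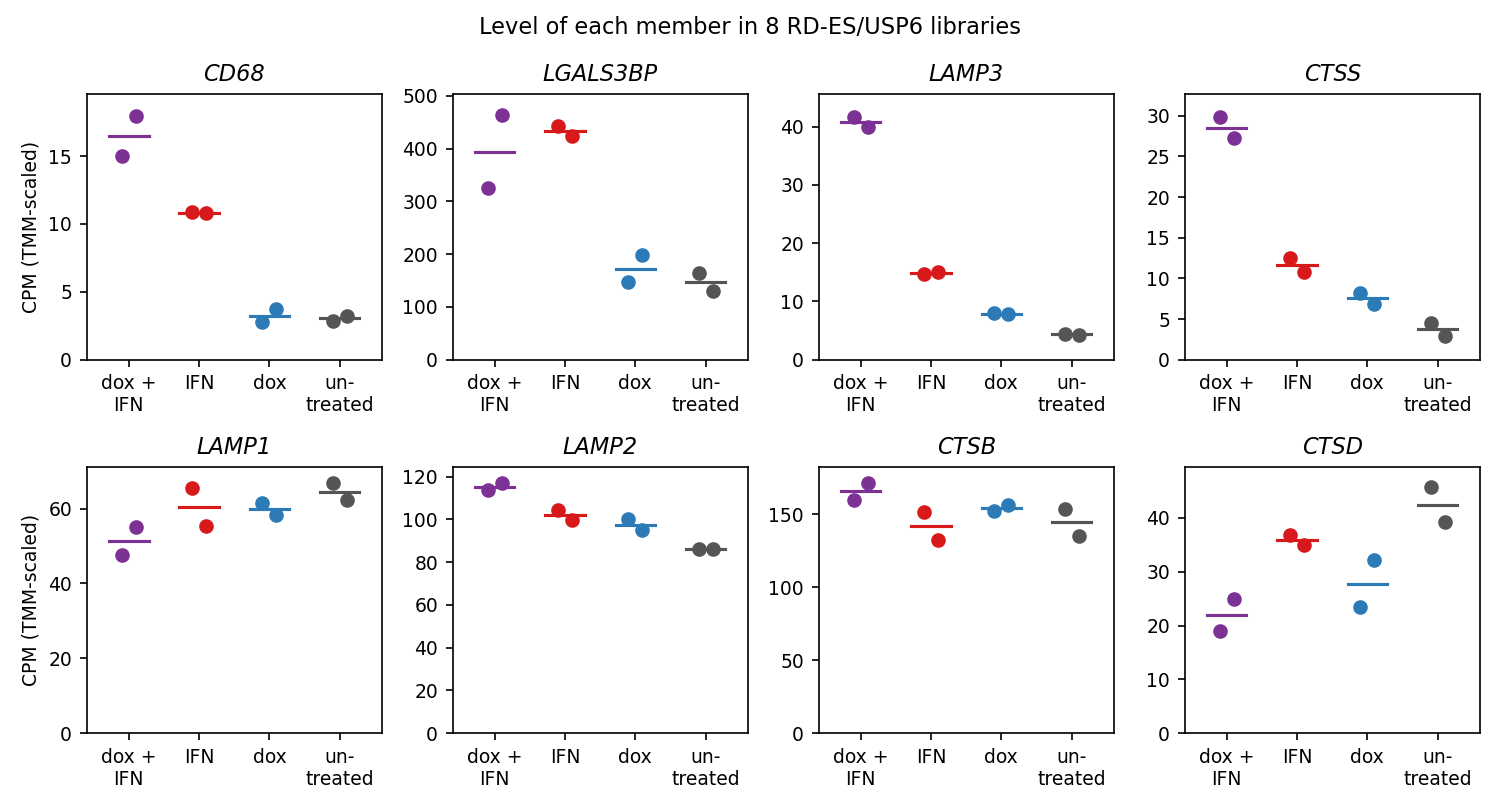
CPM (TMM-scaled, linear axes from 0) of the 8 members in each of the 8 libraries, with both treatments (dox + IFN), interferon (IFN), doxycycline (dox) and no treatment from left to right; points are libraries and lines are means of 2. CD68, LGALS3BP, LAMP3 and CTSS are higher in every library with interferon than in every library without, while CTSB lies between 132.5 and 171.8 CPM throughout.

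LAMP3, the LAMP family member of maturing dendritic cells, was higher with each treatment and highest with both. Its level was 41.63 and 39.97 CPM with both treatments, 14.66 and 15.11 CPM with interferon, 7.93 and 7.82 CPM with doxycycline, and 4.46 and 4.21 CPM in untreated cells. The 4 groups did not overlap, and the replicates of a group lay close together. Interferon raised LAMP3 in doxycycline-treated cells 5.18-fold (log2 2.37 ± 0.14, 95% interval 2.05 to 2.69, edgeR adjusted p = 1.2e-06). LAMP3, like CTSS and LGALS3BP below, was listed with results of these libraries known, so such p-values are no independent support. In cells without doxycycline LAMP3 stood 3.43-fold higher with interferon (log2 1.78 ± 0.16), given without a test. Doxycycline raised it in interferon-treated cells 2.74-fold (log2 1.45 ± 0.14, edgeR adjusted p = 0.00024), and the log2 change kept its call at 1.42 to 1.48 when each library was left out. In cells without interferon the rise with doxycycline was 1.82-fold (log2 0.86 ± 0.17, edgeR adjusted p = 0.047). That call was lost when any of the 8 libraries was left out, at log2 changes of 0.80 to 0.90, and with DESeq2 (adjusted p = 0.056).

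LAMP1 and LAMP2, the abundant glycoproteins that line the lysosomal membrane, passed no test in the fits with or without the GC correction. LAMP1 was read at 47.47 and 55.17 CPM with both treatments, 65.41 and 55.37 CPM with interferon, 61.57 and 58.39 CPM with doxycycline, and 66.76 and 62.37 CPM in untreated cells. Its groups lay close to each other, with the lowest mean under both treatments. Fitted log2 changes of LAMP1 were -0.23 ± 0.12 for interferon with doxycycline, -0.10 ± 0.12 for interferon alone, -0.24 ± 0.12 for doxycycline with interferon and -0.11 ± 0.12 for doxycycline alone. The GC-corrected fit gave -0.14 ± 0.09 and -0.04 ± 0.09 for the 2 doxycycline comparisons in that order. LAMP2 was read at 113.6 and 117.0 CPM with both treatments, 104.4 and 99.74 CPM with interferon, 100.2 and 94.86 CPM with doxycycline, and 86.23 and 86.26 CPM in untreated cells. In each comparison of a single treatment both libraries given it lay above both without it, by log2 changes of 0.24 ± 0.08 for interferon with or without doxycycline and 0.18 ± 0.08 for doxycycline with or without interferon. The tested changes missed the threshold (edgeR adjusted p = 0.18, 0.35 and 0.38 for interferon with doxycycline, doxycycline with interferon and doxycycline alone). In the GC-corrected fit the changes with doxycycline were 0.06 ± 0.07 with interferon and 0.08 ± 0.07 without. LAMP2 passed for interferon with doxycycline in 1 alternative, a block with crossed replicate numbers (log2 0.24, edgeR adjusted p = 0.03). That block was added after the data were seen and gave more calls over all genes than the fit without it. The tested 95% intervals of LAMP2 reached at most 0.42 on the log2 scale, and the lowest bound of LAMP3 in the same 3 comparisons was 0.49.

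LAMP2 has splice forms that differ in the membrane anchor, and the deposited counts give a value to each, although reads of shared exons enter all of them. The form counted above is LAMP2B. The LAMP2A transcript, which serves chaperone-mediated autophagy, held between 59.1% and 62.5% of the LAMP2B reads over the 8 libraries, and LAMP2C held between 49.1% and 53.9%. Neither share separated the groups.

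CTSS, the cysteine protease that trims the invariant chain of MHC class II molecules, had the same order of groups as LAMP3. It stood at 29.83 and 27.26 CPM with both treatments, 12.56 and 10.81 CPM with interferon, 8.18 and 6.89 CPM with doxycycline, and 4.56 and 2.95 CPM in untreated cells. No 2 groups overlapped. Interferon raised CTSS in doxycycline-treated cells 3.79-fold (log2 1.92 ± 0.20, 95% interval 1.49 to 2.35, edgeR adjusted p = 0.00012). Without doxycycline it was 3.11-fold higher with interferon (log2 1.64 ± 0.23), given without a test. Doxycycline raised it in interferon-treated cells 2.44-fold (log2 1.29 ± 0.19, edgeR adjusted p = 0.0071). This call was lost at log2 changes of 1.40, 1.18 and 1.22 when interferon replicate 1, interferon replicate 2 or the first library with both treatments was left out. In cells without interferon the change with doxycycline was 2.01-fold (log2 1.01 ± 0.23, 95% interval 0.50 to 1.52) and missed the threshold (edgeR adjusted p = 0.09). It passed with DESeq2 (adjusted p = 0.048) and in the GC-corrected fit (log2 0.92, edgeR adjusted p = 0.032), and its untreated level rests on 48 and 33 reads.

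CTSB, another cysteine cathepsin, and CTSD, the main aspartic protease of the lysosome, were not called in any comparison by the edgeR fit without GC correction. CTSB was read at 159.6 and 171.8 CPM with both treatments, 151.3 and 132.5 CPM with interferon, 152.3 and 156.7 CPM with doxycycline, and 153.9 and 135.3 CPM in untreated cells. Only the libraries with both treatments stood apart from the rest. Its tested log2 changes were 0.10 ± 0.10 for interferon with doxycycline, 0.22 ± 0.10 for doxycycline with interferon (edgeR adjusted p = 0.33) and 0.10 ± 0.10 for doxycycline alone. In the GC-corrected fit the log2 change with doxycycline in interferon-treated cells was 0.33 ± 0.07 and passed (edgeR adjusted p = 0.019). By the GENCODE 29 annotation 1 gene on the same strand overlaps CTSB, and its reads cannot be told apart from those of CTSB here.

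CTSD was read at lower levels with doxycycline, with 19.05 and 24.87 CPM under both treatments, 36.79 and 35.00 CPM with interferon, 23.36 and 32.21 CPM with doxycycline, and 45.77 and 39.19 CPM in untreated cells. Both libraries with doxycycline lay below both libraries without it, at either state of interferon. The log2 changes with doxycycline were -0.71 ± 0.18 in interferon-treated cells (95% interval -1.11 to -0.31, edgeR adjusted p = 0.10) and -0.61 ± 0.17 in cells without interferon (95% interval -1.0 to -0.23, edgeR adjusted p = 0.17). CTSD has the highest GC content of the members, 63.97%. The GC-corrected fit gave -0.38 ± 0.10 with interferon (edgeR adjusted p = 0.058) and -0.30 ± 0.09 without (edgeR adjusted p = 0.11), smaller by more than 1.5 times. Without that correction the change in interferon-treated cells passed with DESeq2 (log2 -0.70, adjusted p = 0.034), with no filter on low counts (edgeR adjusted p = 0.047), with only the groups compared (edgeR adjusted p = 0.043) and with a crossed replicate block (edgeR adjusted p = 0.0024). The change in cells without interferon passed with the crossed replicate block alone (edgeR adjusted p = 0.0055). That block exchanged replicate numbers in the doxycycline groups, was added after the data were seen and gave more calls over all genes. For interferon the log2 changes of CTSD were -0.34 ± 0.18 with doxycycline and -0.24 ± 0.17 without, and -0.09 ± 0.10 and -0.01 ± 0.09 in the GC-corrected fit. In GENCODE 29, 2 genes on the same strand and 1 on the opposite strand overlap CTSD, and reads cannot be assigned between them here.

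LGALS3BP, a secreted glycoprotein that binds galectins and is known as interferon-inducible, had the highest level per transcript length of the members in cells with interferon. It was read at 325.3 and 463.9 CPM with both treatments, 443.8 and 424.5 CPM with interferon, 146.9 and 197.8 CPM with doxycycline, and 165.1 and 129.4 CPM in untreated cells. Libraries with interferon lay above all libraries without, and within either state of interferon the doxycycline libraries overlapped the others. Interferon raised LGALS3BP in doxycycline-treated cells 2.29-fold (log2 1.19 ± 0.18, 95% interval 0.80 to 1.59, edgeR adjusted p = 0.0027), and without doxycycline it stood 2.95-fold higher with interferon (log2 1.56 ± 0.18), given without a test. The log2 change with doxycycline was -0.14 ± 0.18 in interferon-treated cells (95% interval -0.53 to 0.25, edgeR adjusted p = 0.75) and 0.23 ± 0.18 without interferon (95% interval -0.17 to 0.63, edgeR adjusted p = 0.61). LGALS3BP has a GC content of 60.5%, and in the GC-corrected fit the doxycycline change without interferon was 0.43 ± 0.07 and passed (edgeR adjusted p = 0.0023). The corrected change with doxycycline in interferon-treated cells was 0.08 ± 0.06.

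Scaled to transcript length, the members spanned a wide range of levels, which allows genes to be set roughly beside each other. The lengths are those of reference transcripts, which may differ from the models counted, and transcripts of a gene share reads. Ranks of members with near values are therefore uncertain. In cells with both treatments LGALS3BP had 164 CPM per kilobase, CTSB 82.5, LAMP2 28.6, LAMP1 19.0, LAMP3 12.1, CTSD 10.3, CD68 8.77 and CTSS 6.95. In untreated cells the order was CTSB at 72.0 CPM per kilobase, LGALS3BP at 61.2, LAMP1 at 23.9, LAMP2 at 21.4, then CTSD, CD68 at 1.62, LAMP3 at 1.28 and CTSS at 0.914. CD68, LAMP3 and CTSS were therefore the 3 lowest members per length in untreated cells.

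Counted over the members, 3 of the 7 tested for interferon with doxycycline were called (LAMP3, CTSS and LGALS3BP, all higher), beside 3.33% of all 14601 genes. For doxycycline with interferon 2 of 8 were called (LAMP3 and CTSS, higher), beside 1.34% of all genes, and for doxycycline without interferon 1 of 8 (LAMP3), beside 0.815%. In interferon without doxycycline, the comparison used to choose CD68, 5 of the 8 members, CD68 among them, had both treated libraries above both untreated ones, beside 22.2% of all tested genes. The edgeR test called 2.12% of all genes there. These shares are a description, since the members were listed with results of these libraries known. The comparisons share libraries, since each group enters 2 of the 4 comparisons of a single treatment. Median log2 changes of the members tested were 0.24 for interferon with doxycycline, 0.20 for doxycycline with interferon and 0.14 for doxycycline alone, against -0.02, -0.01 and 0.00 over all genes.

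Whether the interferon response differed with doxycycline was asked of the interaction, the response with doxycycline minus that without. None of the 7 members tested was called by edgeR, 1 had an unadjusted p under 0.05 (LAMP3), and DESeq2 called 0; over all genes edgeR called 0.171%. The difference was 0.59 ± 0.22 on the log2 scale for LAMP3 (95% interval 0.11 to 1.08), 0.28 ± 0.30 for CTSS (-0.39 to 0.95) and -0.37 ± 0.25 for LGALS3BP (-0.92 to 0.19), each with an edgeR adjusted p = 1. For CD68 it was 0.51 ± 0.31, without a test, and 0.30 or 0.74 when doxycycline replicate 1 or 2 was left out. The intervals of LAMP3 and CTSS reach differences of about the size of the changes with doxycycline alone, so these libraries bound the difference only loosely.

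**Figure D2:**
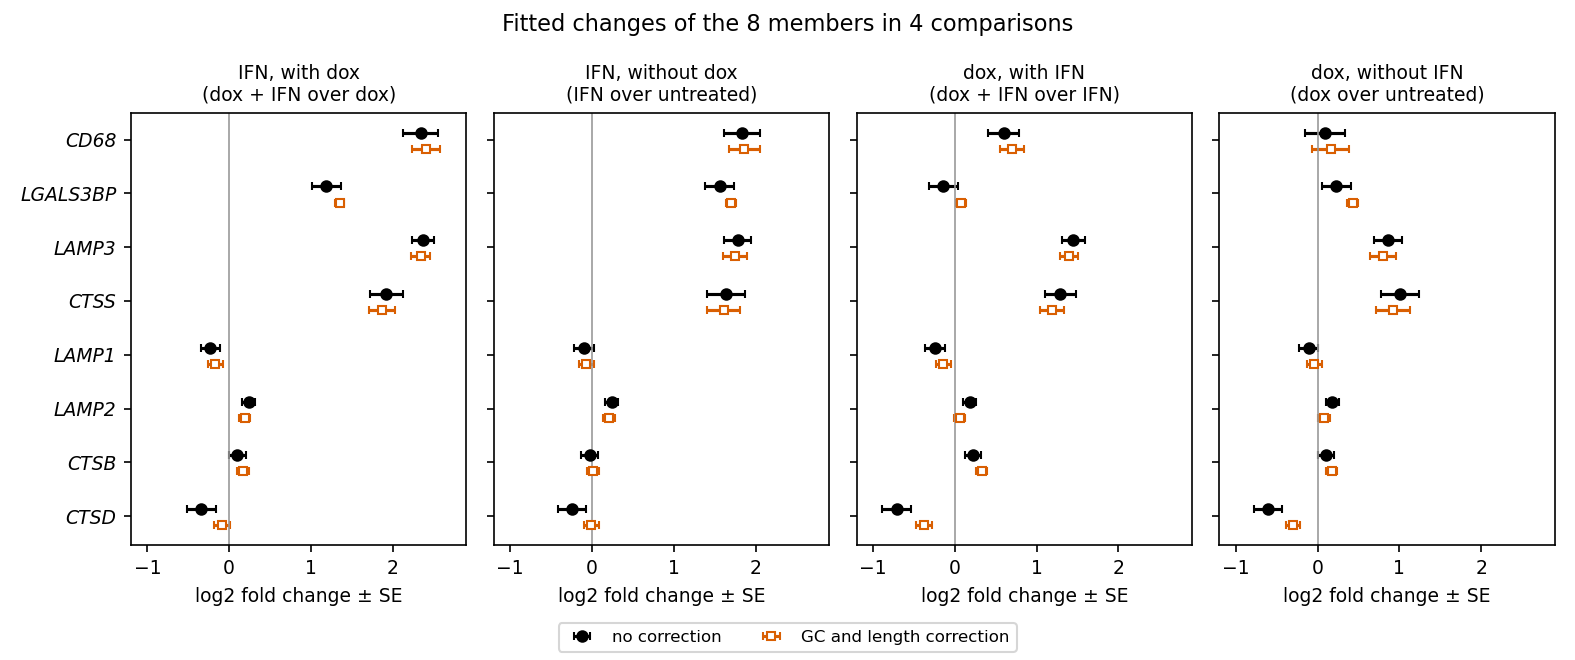
Fitted log2 fold change ± SE of each member for interferon (IFN) with and without doxycycline (dox) and for doxycycline with and without interferon, from left to right; filled circles are the edgeR fit and open squares the GC-corrected fit (trends with GC content and transcript length removed). LAMP3 and CTSS lie right of 0 in all 4 panels, and the correction moves CTSD towards 0 in each.

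Lists of other genes of the lysosome were read in the same comparisons, with the share called over all genes beside the counts. Of 14 other cathepsins and legumain, 11 were tested, and CTSO and LGMN rose with interferon both with and without doxycycline. Over all genes edgeR called 3.33% for interferon with doxycycline and 2.12% without. CTSO, a little-studied cysteine cathepsin, averaged 20.35 ± 3.58 CPM with both treatments, 14.87 ± 1.29 with interferon, 9.38 ± 1.01 with doxycycline and 5.85 ± 0.21 in untreated cells (SD, n = 2). Its log2 changes were 1.12 ± 0.18 for interferon with doxycycline (edgeR adjusted p = 0.0041) and 1.34 ± 0.19 without (edgeR adjusted p = 0.0025). LGMN, the asparaginyl endopeptidase legumain, averaged 62.91 ± 3.26 CPM with both treatments, 37.70 ± 4.22 with interferon, 36.87 ± 2.25 with doxycycline and 24.41 ± 2.0 in untreated cells. It rose with interferon by 0.77 ± 0.12 with doxycycline (edgeR adjusted p = 0.0041) and 0.63 ± 0.13 without (edgeR adjusted p = 0.031), and with doxycycline in interferon-treated cells by 0.74 ± 0.13 (edgeR adjusted p = 0.017). Of these calls, both for interferon with doxycycline were lost without doxycycline replicate 2. The LGMN call for interferon alone was lost when any of the interferon or untreated libraries was left out. Its call for doxycycline with interferon was lost on leaving out interferon replicate 1, interferon replicate 2 or the first library with both treatments. None of the 11 was called for doxycycline alone by edgeR, with 4 at an unadjusted p under 0.05 and 1 by DESeq2. The GC-corrected fit called LGMN and CTSF there (log2 0.61 and 0.39, edgeR adjusted p = 0.0086 and 0.04). The median log2 change of the list was -0.13 for interferon with doxycycline, against -0.02 over all genes. It was 0.05 for interferon alone, 0.09 for doxycycline with interferon and 0.07 for doxycycline alone, against -0.01, -0.01 and 0.00.

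Among 20 tested proteins of the lysosomal membrane outside the set, SCARB2, a receptor that carries glucocerebrosidase to the lysosome, gave the only calls of the edgeR fit without GC correction, in the comparisons of interferon with and without doxycycline. These were 1 of 20 in each, beside 3.33% of all genes for interferon with doxycycline and 2.12% for interferon alone. For each doxycycline comparison edgeR called 0, with 3 at an unadjusted p under 0.05 and 1 by DESeq2. Over all genes edgeR called 1.34% for doxycycline with interferon and 0.815% for doxycycline alone. SCARB2 averaged 360.3 ± 37.9 CPM with both treatments, 270.2 ± 0.0242 with interferon, 248.6 ± 18.2 with doxycycline and 191.8 ± 4.67 in untreated cells (SD, n = 2), with log2 changes of 0.54 ± 0.09 for interferon with doxycycline (edgeR adjusted p = 0.0075) and 0.49 ± 0.10 without (edgeR adjusted p = 0.021). The call with doxycycline was lost without doxycycline replicate 2, and that without doxycycline was lost when any of the interferon or untreated libraries was left out. The GC-corrected fit called SCARB2 in both doxycycline comparisons (log2 0.33 with interferon and 0.30 without, edgeR adjusted p = 0.0086 and 0.02), and ABCB9, a peptide transporter of the lysosome, lower for interferon with doxycycline (log2 -0.74, edgeR adjusted p = 0.026). None of the 32 lysosomal hydrolases was called by DESeq2 or by edgeR without GC correction in any comparison, with between 0 and 6 at an unadjusted p under 0.05. The GC-corrected fit called 3: for interferon with doxycycline the sphingomyelinase SMPD1 was higher (log2 0.49, edgeR adjusted p = 0.0064) and the glucuronidase GUSB lower (log2 -0.36, edgeR adjusted p = 0.043), and for doxycycline alone the fucosidase FUCA1 was higher (log2 0.42, edgeR adjusted p = 0.03). Over all 14601 genes the GC-corrected fit called 1396 for interferon with doxycycline and 522 for doxycycline alone. Median log2 changes of the hydrolases in the uncorrected fit were 0.00 for interferon with doxycycline, 0.07 for interferon alone, 0.08 for doxycycline with interferon and 0.16 for doxycycline alone. Over all genes the medians were -0.02, -0.01, -0.01 and 0.00 in that order. None of the 16 subunits and partners of the V-ATPase, the proton pump that acidifies the lysosome, was called by either tool, with between 0 and 2 at an unadjusted p under 0.05. The 3 tested cathepsin inhibitors and partners, of 9 listed, had no call by either tool and none at an unadjusted p under 0.05. At the shares that edgeR called over all genes, lists of 32, 16 and 3 genes would hold few or no calls.

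Of 16 regulators of lysosomal genes, TFEC and MITF, both of the TFEB family of transcription factors, were called for interferon with doxycycline, in opposite directions. Over all genes edgeR called 3.33% there. TFEC averaged 9.98 CPM with both treatments and 4.46 CPM with doxycycline. Its log2 change of 1.16 ± 0.20 passed (edgeR adjusted p = 0.0068), and not when either doxycycline library was left out. MITF averaged 3.19 CPM with both treatments and 6.32 CPM with doxycycline. Its log2 change of -0.98 ± 0.23 (edgeR adjusted p = 0.042) was not called when any of the 8 libraries was left out, nor by DESeq2. TFE3, of the same family, was called in none of these comparisons without GC correction (edgeR adjusted p between 0.42 and 0.50). In the GC-corrected fit it was higher in all 4 comparisons of a single treatment, by log2 0.37 for interferon with doxycycline, 0.36 for interferon alone, 0.44 for doxycycline with interferon and 0.43 for doxycycline alone (edgeR adjusted p = 0.012, 0.022, 0.01 and 0.013). FNIP1, another of the 16, was also called higher for doxycycline with interferon in the GC-corrected fit (log2 0.27, edgeR adjusted p = 0.05 after rounding). Without that correction it was not called (edgeR adjusted p = 0.1). Among 4 tested galectins LGALS9, a galectin that binds TIM-3, was called with interferon, beside 3.33% of all genes with doxycycline and 2.12% without. It held 100 and 126 reads with both treatments, 71 and 72 with interferon, 7 and 4 with doxycycline, and 1 and 4 in untreated cells, with fitted log2 changes of 4.64 ± 0.36 for interferon with doxycycline (edgeR adjusted p = 9.2e-06) and 4.85 ± 0.44 without (edgeR adjusted p = 3.9e-05). In the GC-corrected fit LGALS9 also passed for doxycycline with interferon (log2 0.83, edgeR adjusted p = 0.032), and LGALS8 passed for interferon with doxycycline and alone (log2 0.32 and 0.30, edgeR adjusted p = 0.0084 and 0.017). The low counts of LGALS9 in cells without interferon leave the size of its interferon change uncertain.

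OPTN, an autophagy receptor that binds ubiquitin, was called in all 4 comparisons of a single treatment. It averaged 82.71 ± 5.76 CPM with both treatments, 29.66 ± 1.77 with interferon, 35.66 ± 0.186 with doxycycline and 9.28 ± 1.11 in untreated cells (SD, n = 2). The log2 changes were 1.21 ± 0.12 for interferon with doxycycline (edgeR adjusted p = 7.9e-05), 1.68 ± 0.14 for interferon alone (edgeR adjusted p = 1.9e-05), 1.48 ± 0.12 for doxycycline with interferon (edgeR adjusted p = 7.7e-05) and 1.94 ± 0.14 for doxycycline alone (edgeR adjusted p = 2.4e-05). These calls held with every library left out in turn. Among the other 10 autophagy receptors and ATG8 proteins, CALCOCO2 and GABARAPL1 were called for interferon alone, with log2 changes of 0.40 ± 0.09 (edgeR adjusted p = 0.045) and 0.38 ± 0.09 (edgeR adjusted p = 0.049), and each was lost when any of the interferon, doxycycline-only or untreated libraries was left out. Without GC correction edgeR thus called 3 of the 11 for interferon alone, beside 2.12% of all genes. It called 1 of the 11 for interferon with doxycycline, doxycycline with interferon and doxycycline alone, beside 3.33%, 1.34% and 0.815%. The GC-corrected fit called 3 of the 11 for interferon alone, 3 higher and 1 lower for interferon with doxycycline, 1 higher and 1 lower for doxycycline with interferon, and 3 for doxycycline alone. Over all 14601 genes that fit called 856, 1396, 574 and 522 in that order.

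**Figure D3:**
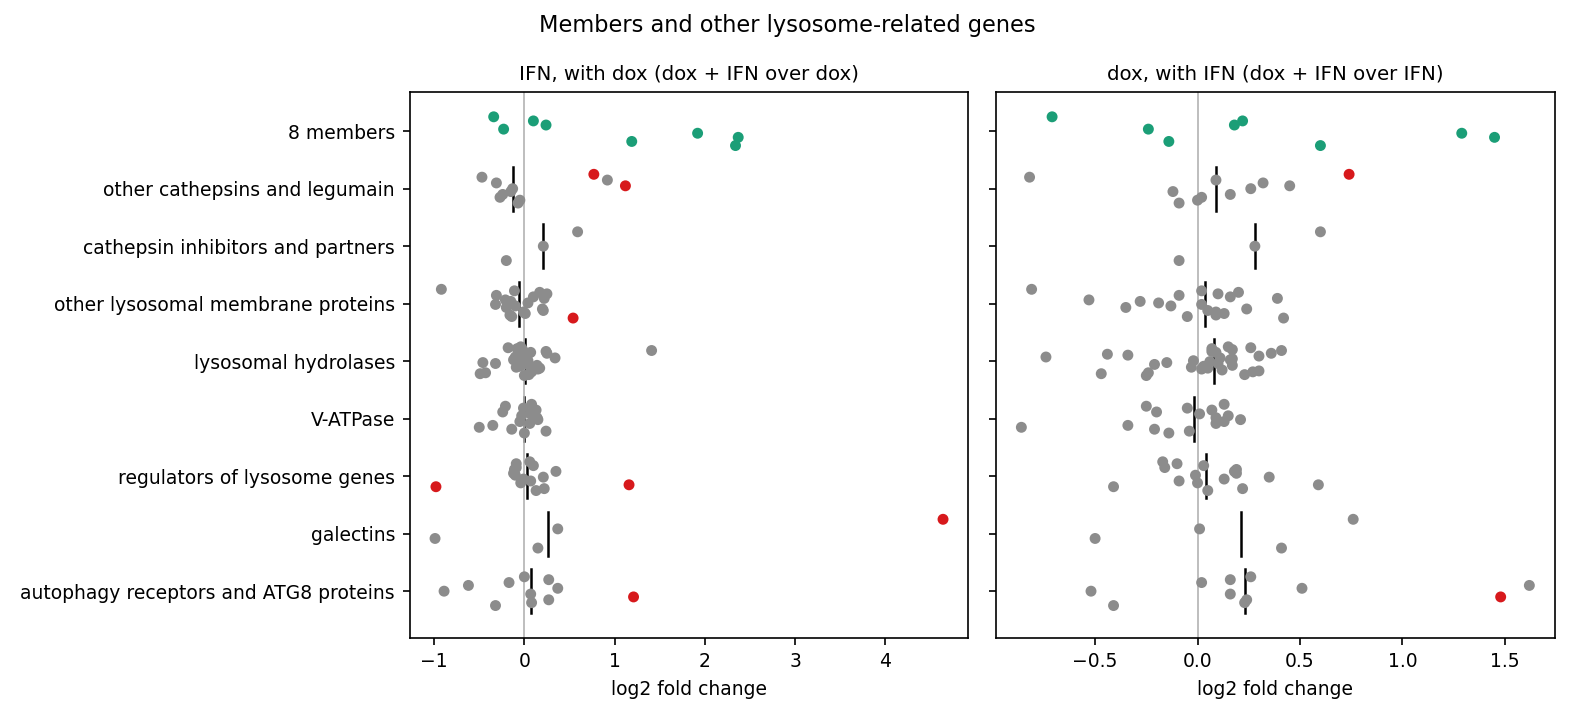
Log2 fold change of the 8 members (green) and of the tested genes of 8 lists of lysosome-related genes for interferon (IFN) in doxycycline-treated cells and for doxycycline (dox) in interferon-treated cells; each point is a gene, red points passed an edgeR adjusted p under 0.05, and black bars are list medians. LAMP3 and CD68 lie furthest right among the members in the left panel, at 2.37 and 2.34, while the hydrolase median lies at 0.00.

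CD68 is used as a macrophage marker and LAMP3 as a marker of mature dendritic cells, so markers of these cells were read in the same libraries. Of 16 macrophage and monocyte markers 10 averaged under 1 CPM. TYROBP had 0 reads in all 8 libraries, SPI1 and MRC1 had 0 or 1, CD14 had 1 to 4, CD163 had 0 to 4 and LYZ had 1 to 4. The highest of the 16 was AIF1 with 29 to 54 reads, near the 30 to 44 of CD68 in libraries without interferon. CSF1R, PTPRC, ITGAM, MSR1 and EMR1 had between 7 and 28 reads. The summed level of the 16 was 13.8 to 15.4 CPM with both treatments, 11.7 to 12.2 with interferon, 10.7 to 13.3 with doxycycline and 9.66 to 12.3 in untreated cells. The 6 markers that could be tested gave no call by edgeR or DESeq2, with at most 1 at an unadjusted p under 0.05 in a comparison. Over all genes edgeR called at most 3.33% in a comparison, so 6 genes would hold few or no calls. Of 10 dendritic cell markers CD83 was read at 770 to 1395 reads per library and was called for interferon with doxycycline (log2 0.56 ± 0.11, edgeR adjusted p = 0.012) and for doxycycline with interferon (log2 0.58 ± 0.11, edgeR adjusted p = 0.024), while XCR1 was at 0 in every library and CCR7 at 2 to 5 reads. The first CD83 call was lost without doxycycline replicate 2 or replicate 1 of both treatments, the second without interferon replicate 1, interferon replicate 2 or replicate 1 of both treatments. The summed level of the 10 was 122 to 144 CPM with both treatments, 89.4 to 89.9 with interferon, 85.3 to 99.2 with doxycycline and 75.7 to 75.8 in untreated cells, nearly all of it CD83. Its part in the LAMP3 result was not tested. All 9 Ewing sarcoma markers were detected, among them NKX2-2 with 112 to 221 reads, although CD99, the surface antigen used in diagnosis, had 22 to 34. CD99 lies in a pseudoautosomal region, and how reads of such regions were counted is not given in the sources used here, so its count is uncertain. Of these 9, CAV1 was called for interferon with doxycycline (log2 0.42 ± 0.10, edgeR adjusted p = 0.038), but not when a doxycycline-only library or the first library with both treatments was left out. DESeq2 called 3 of the 9 for interferon with doxycycline and the GC-corrected fit 4, all higher. For doxycycline alone edgeR called 0, with 6 at an unadjusted p under 0.05 and 1 by DESeq2 (CCND1), and the GC-corrected fit called 6, all lower: NKX2-2, STEAP1, CCND1, CAV1, LIPI and IL1RAP, with log2 changes between -0.56 and -0.28. For doxycycline with interferon the GC-corrected fit called 1 higher and 2 lower. Over all 14601 genes that fit called 1396 for interferon with doxycycline, 522 for doxycycline alone and 574 for doxycycline with interferon. The summed level of the 9 was 3500 to 3760 CPM with both treatments, 3680 to 4090 with interferon, 2840 to 3000 with doxycycline and 3360 to 3700 in untreated cells, and its part in the results of the members was not tested.

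By a rule of distance, the profiles most like those of the 4 members that were high with interferon were named. Each gene's log2 CPM was centred over the 8 libraries, and the Euclidean distance to the member was taken among 11375 genes with a mean of at least 5 CPM. Among the nearest to CD68 were HLA-E at a distance of 0.59, LAP3 at 0.61, and H1F0 and SERPING1 at 0.72. HLA-E is a non-classical MHC class I heavy chain, LAP3 is an aminopeptidase, H1F0 a linker histone, and SERPING1 the inhibitor of the first complement component. Nearest to LGALS3BP were SHISA5 at 0.24, LY6E at 0.34 and PTK2B at 0.47. NCOA7 was nearest to both LAMP3, at 0.58, and CTSS, at 0.72, followed by CLEC7A and IRF1 for LAMP3 (0.68 and 0.73) and by VCAM1 and ATF3 for CTSS (0.77 and 0.89). Among the members, LAMP2 and CTSB lay 0.36 apart, LAMP1 and CTSB 0.59, LAMP3 and CTSS 0.64, and LAMP1 and LAMP2 0.78. The distance is not scaled to the size of a change, so genes that change little lie close whatever their pattern. CD68 lay 1.21 from LAMP3, 1.27 from LGALS3BP and 1.44 from CTSS. CD68 lay further from the remaining members, at 2.60 from LAMP2, 2.87 from CTSB, 3.25 from LAMP1 and 3.61 from CTSD. It was chosen for its rise with interferon, so its distances are not independent of that choice.

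**Figure D4:**
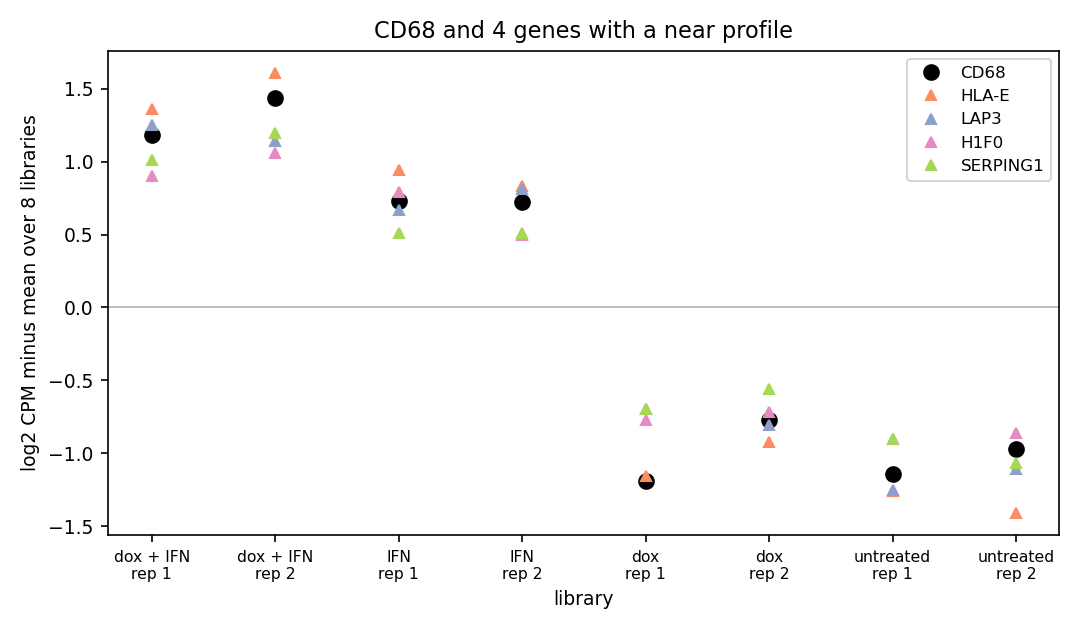
Centred log2 CPM of CD68 (black circles) and of 4 of the genes nearest to it (coloured triangles) in each of the 8 libraries, with libraries of both treatments at the left and untreated libraries at the right. All 5 genes lie above 0 in the 4 libraries with interferon (IFN) and below 0 in the 4 without, and CD68 reaches 1.18 and 1.44 with both treatments.

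The genes on each side of the 4 members that were high with interferon were read for comparison, by their order in the reference annotation and as present in the counts. EIF4A1, which lies before CD68, averaged 670 CPM with both treatments, 740 with interferon, 658 with doxycycline and 709 in untreated cells, and MPDU1, after it, averaged 50.1, 62.1, 52.0 and 60.9 CPM in the same groups. CTSK, a cysteine cathepsin of bone resorption that neighbours CTSS, averaged 15.3 CPM with both treatments, 16.7 with interferon, 17.1 with doxycycline and 16.9 in untreated cells. Neither these nor the tested neighbours of LAMP3 (MCCC1 and MCF2L2) and of LGALS3BP (TIMP2 and CANT1) were called by edgeR in any comparison.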

How the data were processed

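RNA from 8 libraries of RD-ES cells in 4 groups of 2 was read from the authors' deposited table of counts, whole read numbers per transcript without normalisation, for 34917 transcripts. Libraries were made with a stranded total RNA kit, per the labels' protocols. The tools named are CASAVA 1.8.2 and edgeR with build hg19, per the submitters' processing notes. What each did, and the aligner, counter and strand setting, is not given in the sources used here. Columns were mapped to groups and replicates through the labels.

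Transcripts of a gene share reads, so the transcript with the highest total stood for each symbol; these held 57.07% of all reads. The test was edgeR's quasi-likelihood F test (edgeR 4.0.16 under R 4.3.3, TMM factors between 0.978 and 1.026, default filter, all 8 libraries in 1 fit with 4 residual degrees of freedom). Genes with a Benjamini-Hochberg adjusted p under 0.05 over 14601 genes were called. Intervals are 95%. Levels are CPM derived from the counts. GC content and length, known for 98.3% of tested genes, came from the reference transcripts, and the correction used loess (span 0.3). The script was tested on simulated data. Replicates differed by more than sampling noise (chi-square per degree of freedom 4.1 to 8.57), so none was counted as a duplicate.

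Members, lists, named genes and tests were chosen with earlier results of these data known. All members, the genes called in each list (at most 3 by smallest p), the nearest profiles (5 for CD68, 3 for LGALS3BP, LAMP3 and CTSS; prior count of 2 in log2 CPM) and the neighbouring genes are named. A single gene that the rule on profiles names for CD68 is not reported here. CD83, GABARAPL1 and other single calls are named because their counts were small, and markers with the fewest or the most reads were picked after their values were seen. Alternatives were DESeq2 1.42.0 and its size factors, other filters, only the groups compared, a replicate block, the GC and length correction, summed transcripts and leaving out each library.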

Additional observations from a re-analysis of the deposited data

How the results depend on the processing

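No fitted log2 change of a member that was called reversed its sign under any alternative run. For interferon with doxycycline 3 members were called in every alternative, except 4 (with LAMP2) with the crossed replicate block, which exchanged replicate numbers in the doxycycline groups and was added after the data were seen. For doxycycline without interferon the 1 call became 0 with DESeq2 size factors, only the groups compared, a stricter filter (at least 50 reads and a mean of 1 CPM), the replicate block, summed transcripts, and without each replicate in turn (0 to 0). It became 2 with no filter and 3 with the GC and length correction, the same with the replicate block, and the crossed replicate block. For doxycycline with interferon the 2 calls became 3, with CTSD added, with DESeq2, no filter or only the groups compared, 4 with the GC and length correction, with or without the replicate block, and 5 with the crossed replicate block, and were 1 to 2 without each replicate in turn. The interaction gave 0 calls throughout. Over all genes the GC and length correction gave more calls than the fit without it: 1396 against 486 for interferon with doxycycline, 856 against 310 for interferon alone, 574 against 196 for doxycycline with interferon, 522 against 119 for doxycycline alone, and 48 against 25 for the interaction. DESeq2 gave 237 for doxycycline alone and 41 for the interaction, and no filter gave 207 and only the groups compared 78 for doxycycline alone. Leaving out 1 library gave 290 to 480, 174 to 336, 46 to 266, 54 to 131 and 9 to 20 calls in that order. The correction with the replicate block gave 1606, 994, 738, 741 and 49 calls, and the crossed replicate block 1864, 1117, 1497, 1252 and 53. Replicate numbers do not pair libraries by the labels: deviations of the same number correlated across genes at 0.45 between both treatments and doxycycline, 0.34 between interferon and untreated, and -0.35 between doxycycline and untreated. The causes were not tested. Reads limit CD68, LAMP3 and CTSS most, with 30 to 48 in each untreated library.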
